A study of Homo sapiens with 8 samples.

Results

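The PTP4A family, also called phosphatases of regenerating liver, was followed through 8 RNA-seq libraries of the HMEC-1 line, which are human skin capillary endothelial cells made immortal by the SV40 large T antigen. Its members were taken by name: PTP4A1, PTP4A2 and PTP4A3 were all present, 3 of the 16153 genes listed. PTP4A1 came to attention through its level in space_1g against ground, so its values are given as a description without a test. The other 2 genes were added as relatives, and for them the p-values come from one fit across all genes.

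Per the labels, 3 libraries (space_microg) came from cells kept weightless on the International Space Station. Another 2 libraries (space_1g) came from cells that flew alongside them on the incubator's centrifuge, which held them at 1 g, and 3 (ground) from cells kept at 1 g in a facility in the home laboratory. All cells were grown on gelatin-coated plastic coverslips with serum, hydrocortisone and EGF, then fixed in their culture units with an RNA-preserving reagent. Both flight groups shared launch and return, whereas ground cultures travelled by airliner before the run, and flight samples were kept at 6°C after landing until they were processed. Whether replicates were separate cultures is not stated in the labels, and the p-values given here reflect the spread of these libraries alone, which may be technical.

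PTP4A proteins are small tyrosine phosphatases that end in a farnesylated CAAX tail, which anchors them to the plasma membrane and endosomes. PTP4A1 was first found as an immediate early gene of regenerating liver, PTP4A2 is expressed in most tissues, and PTP4A3 is known from metastatic tumours and from endothelial cells answering VEGF. All bind CNNM proteins, which handle magnesium at the membrane, and they have been tied to Src and growth factor signalling in cell movement.

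PTP4A1 lies on the plus strand of chromosome 6 from 63521746 to 63583377 and PTP4A2 on the minus strand of chromosome 1 from 31906421 to 31944856, in GENCODE v29 on GRCh38. Across the family, coding sequences of the principal transcripts, each the longest open reading frame with the catalytic motif, were 76.6% identical between PTP4A1 and PTP4A2 (386 of 504 aligned bases), 69.0% between PTP4A1 and PTP4A3 and 68.3% between PTP4A2 and PTP4A3. The stretch that encodes the catalytic loop, shared by all enzymes of this kind, shows how reads of the 2 abundant members can be told apart. It is coding bases 295 to 342 of PTP4A1 and 286 to 333 of PTP4A2, and capitals mark the 13 of 48 bases that differ.
PTP4A1: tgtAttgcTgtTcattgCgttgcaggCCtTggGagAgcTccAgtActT
PTP4A2: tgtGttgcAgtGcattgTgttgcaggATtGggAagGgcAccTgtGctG

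Of all 100-base windows in the principal transcript, 0% of PTP4A2 and 0% of PTP4A3 occurred in a transcript of another gene. For PTP4A1 the share was 88.3%, all of it with AL135905.2, a gene model on the same strand from 63572012 to 63583587 that repeats the last exons of PTP4A1 in this annotation and is not analysed here. Without that model the share was 0%. Of 50-base windows, 3.28% of PTP4A2 were shared with 31 other genes, among them its pseudogenes PTP4A2P1 and PTP4A2P2, 0.558% of PTP4A1 apart from AL135905.2, and 0% of PTP4A3. No label says how reads shared by both models were counted, or whether counting used the strand, so the level of PTP4A1 could depend on it. Each member also overlaps an antisense or other noncoding model (AL135905.1 for PTP4A1, AL136115.1 and, on the same strand, AL136115.2 for PTP4A2, AC100803.1 for PTP4A3), none of which is analysed here.

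The 2 genes that carry the family's reads have different promoters. They are shown because each gene's mean level was highest in a flight group, space_1g for PTP4A1 and space_microg for PTP4A2. For PTP4A2 the space_1g and ground libraries overlapped. RefSeq's promoter table on GRCh38.p14 held windows for 2 of the 3 members, and the first of the 4 listed for PTP4A1 and of the 2 for PTP4A2 was taken, over the 250 bases before its start. That of PTP4A1 had 72.4% GC, that of PTP4A2 76.8% and the median of all 27305 windows 58.0%. Capitals mark matches, on either strand, to the GC box of Sp1 (GGGCGG), the EGR1 site (GCGNGGGCG) and the TATA box (TATAAA).
PTP4A1, 116 to 87 bases before the start, chr6:63572364-63572393, plus strand: GGGCGGgcctCCGCCCCCGCctgtcggctc
PTP4A1, 40 to 12 bases before the start, chr6:63572440-63572468, plus strand: tcgcgccggcTATAAAggggagggcttgt
PTP4A2, 133 to 104 bases before the start, chr1:31938472-31938501, minus strand: cgcggggcaggtGGGCGGgcccaactgccc
PTP4A2, 40 to 12 bases before the start, chr1:31938380-31938408, minus strand: ccccgcagcgccccctgagGGGCGGcggc

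PTP4A1 held a TATA box, found in 11.1% of all windows, an EGR1 match (8.25%) that overlaps one of its 3 GC boxes, a cyclic AMP response half-site (TGACGT, 7.42%) and a CCAAT box (CCAAT, 33.0%). PTP4A2 held 3 GC boxes, a motif present in 42.3% of windows, and no match to these other motifs. Neither window matched the AP-1 site (TGANTCA, 6.60%) or the CArG box of SRF (1.14%). A match describes letters and not binding, and in GENCODE v29 the gene model AL135905.2 spans the PTP4A1 window. The antisense model AL135905.1 overlaps that window too. Each window also lies inside its own gene's model, which begins further upstream, and that of PTP4A2 overlaps annotated untranslated bases.

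Depth in the listed genes was 24248964 to 35388757 reads per library. Along the leading principal component (61.9% of the variance), 2 libraries stood apart from the other 6, namely space_1g replicate 1 and ground replicate 3. These libraries had the highest mean scores of interferon-stimulated genes (1.29 and 1.47 against -0.99 to 0.51), and the lowest of mitosis (-1.77 and -1.16 against 0.15 to 0.74), where a score is the mean of standardised log values over a list. Among the other 6, space_microg replicate 1 lay nearest to these 2 on the component, at -1.51 against 20.7 to 31.1 in the rest. It also had the interferon score of 0.51 and the mitosis score of 0.15. All 12 endothelial markers sought were present, with PECAM1 at 201 to 367 CPM and CDH5 at 268 to 579 CPM. ESAM (4.55 to 8.01 CPM) and CLDN5 (0.263 to 9.93 CPM) were low. Summed over the list the 12 markers gave 1338 to 1982 CPM in space_microg, 1461 to 1656 in space_1g and 1963 to 2292 on the ground. Their part in the results below was not tested. Of other cell types, 4 of 8 fibroblast markers (113 to 330 CPM summed), 3 of 5 of smooth muscle (28.4 to 74.8), 1 of 6 of epithelium (1.55 to 4.29) and 1 of 6 of leukocytes (1.04 to 2.88) were measured. In bulk RNA, fewer expressing cells and less RNA per cell cannot be told apart.

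PTP4A1 was higher in every flight library than in every ground library. Its level, in CPM (reads scaled to library size), was 79.3, 87.7 and 96.5 in ground replicates 1 to 3, from 2178, 2201 and 3149 reads. Weightless cells had 126.6, 129.4 and 127.7 CPM in space_microg replicates 1 to 3, the tightest group for this gene. The space_1g libraries had 161.6 and 138.3 CPM. The groups thus stood in the order ground (87.8 ± 8.60, SD, n = 3), space_microg (128 ± 1.39, n = 3) and space_1g (149.9 ± 16.5, n = 2), with no overlap between any of them. The gap between space_microg and space_1g, 129.4 against 138.3 CPM at its narrowest, was smaller than the SD within space_1g.

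**Figure D1:**
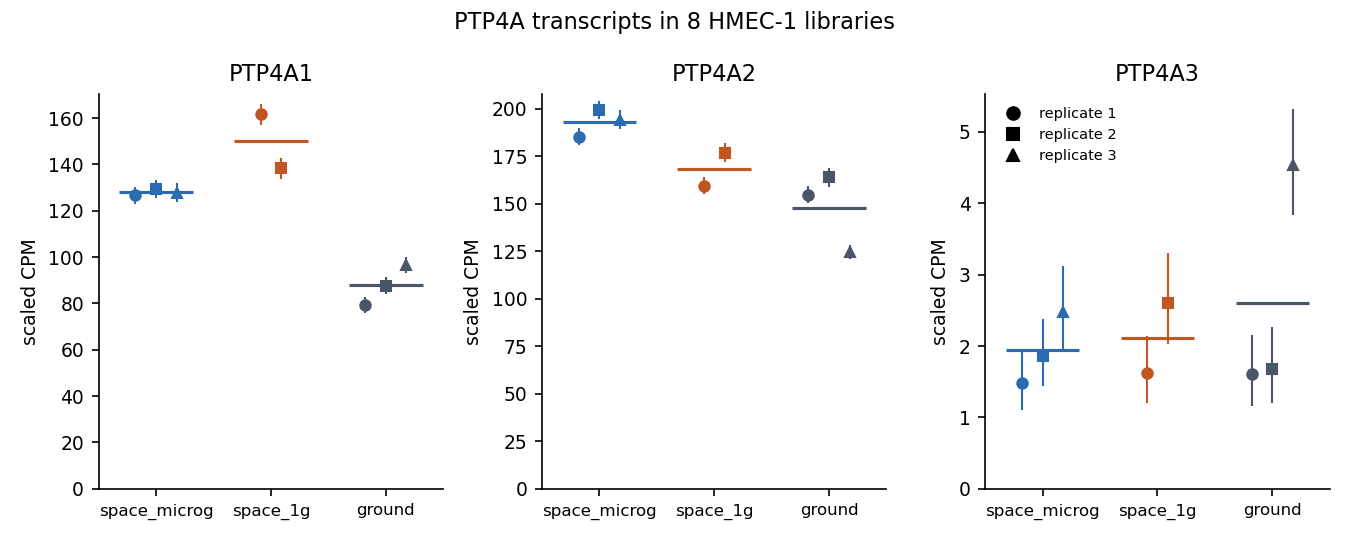
Scaled CPM (y axis, linear, from 0) of PTP4A1, PTP4A2 and PTP4A3 in space_microg, space_1g and ground (x axis). Points are libraries, with marker shape for the replicate number and bars for the 95% Poisson interval of the reads, and horizontal lines are group means. PTP4A1 is above 126 CPM in every flight library and below 97 CPM in every ground library, and the highest PTP4A3 point is ground replicate 3.

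Fitted differences on the log2(CPM + 1) scale, which understates changes of low genes, were 0.76 ± 0.15 (SE) for space_1g against ground, 0.54 ± 0.14 for space_microg against ground and -0.22 ± 0.15 for space_microg against space_1g. The first 2 share the ground libraries. Among all 16103 genes tested, 4.94% had every space_1g library above every ground library, 7.88% every space_microg library above ground, 6.91% every space_microg library below space_1g and 1.57% all 5 flight libraries above ground. These shares are background only, since PTP4A1 was chosen by such values. Limma called 0% of genes at an adjusted p under 0.05 in each of the 3 comparisons. With an unadjusted p under 0.05, limma counted 249 genes (1.55%) for space_1g against ground, 696 (4.32%) for space_microg against ground and 212 (1.32%) for space_microg against space_1g. EdgeR called 0 genes in each, and DESeq2 called 0, 3 and 0.

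PTP4A1 kept its order with and without the libraries that stand apart. Between them, space_1g replicate 1 had 161.6 CPM and ground replicate 3 had 96.5 CPM, and among the remaining 6, space_1g replicate 2 had 138.3 CPM against 79.3 and 87.7 on the ground. Within its own group each of the 2 was the highest PTP4A1 library. Without both, the difference was 0.72 ± 0.17 for space_1g against ground, 0.61 ± 0.13 for space_microg against ground and -0.11 ± 0.16 for space_microg against space_1g. Leaving out space_1g replicate 1 alone also gave -0.11 for the last of these, where its SE is larger than the difference.

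PTP4A2 was highest in weightless cells. Its level was 185.4, 199.2 and 194.3 CPM in space_microg replicates 1 to 3, and 159.7 and 176.9 CPM in the space_1g libraries. Ground replicates 1 to 3 had 154.9, 164.0 and 124.5 CPM, the last being the library that stands apart. The space_microg libraries thus lay above all other libraries, while space_1g and ground overlapped. Group means were 193 ± 7.02 (SD, n = 3), 168 ± 12.2 (n = 2) and 148 ± 20.6 CPM (n = 3).

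For PTP4A2 the fitted difference was 0.39 ± 0.15 for space_microg against ground (limma, adjusted p = 0.866), 0.19 ± 0.16 for space_1g against ground (adjusted p = 1.00) and 0.20 ± 0.16 for space_microg against space_1g (adjusted p = 0.912). None passed the threshold, and a miss does not show that levels were alike. All 3 space_microg libraries were above all 3 ground libraries, as in 7.88% of genes, and above both space_1g libraries, as in 7.24%. The space_1g difference was 0.077 without ground replicate 3 and 0.12 without space_1g replicate 2, and that between the flight groups was 0.12 without space_1g replicate 1. Over the 21 other settings tried, the adjusted p for space_microg against ground ranged from 0.0597 with weights per library to 0.999.

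PTP4A3, on the plus strand of chromosome 8 from 141391993 to 141432454 (GRCh38), was scarce in these cells. Its level was 1.48, 1.87 and 2.48 CPM in space_microg, 1.63 and 2.61 CPM in space_1g, and 1.60, 1.67 and 4.54 CPM on the ground. These come from 42 to 148 reads, so that counting error alone is wide: ground replicate 1 has a 95% Poisson interval of 1.16 to 2.15 CPM. Ground replicate 3, with an interval of 3.83 to 5.33 CPM, lay above all other libraries, whose highest upper bound was 3.30 CPM. Otherwise the 3 groups overlapped in full.

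Differences of PTP4A3 were -0.13 ± 0.37 for space_1g against ground (limma, adjusted p = 1.00), -0.21 ± 0.33 for space_microg against ground (adjusted p = 0.918) and -0.078 ± 0.37 for space_microg against space_1g (adjusted p = 0.969). Without ground replicate 3 the first 2 turned to 0.22 and 0.14. The third turned to 0.15 without space_1g replicate 2 and to 0.039 without space_microg replicate 1, and the first to 0.094 without space_1g replicate 1. No direction is therefore given for PTP4A3.

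**Figure D2:**
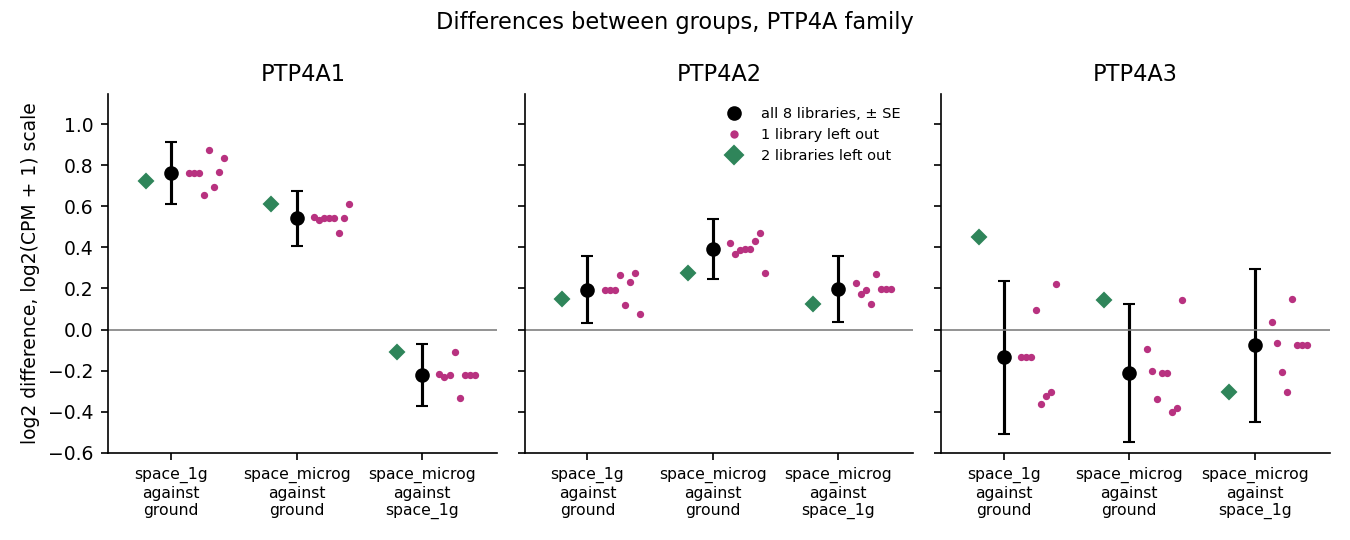
Log2 differences on the log2(CPM + 1) scale (y axis) for 3 comparisons between groups (x axis) in each PTP4A gene. Black points are the fit of all 8 libraries with its SE, small points the fits with 1 library left out, and diamonds the fit without space_1g replicate 1 and ground replicate 3. PTP4A1 and PTP4A2 keep their side of 0 in every fit shown, and PTP4A3 crosses it.

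Across the family, reads were dominated by PTP4A1 and PTP4A2. The summed level was 313.5, 330.4 and 324.5 CPM in space_microg, 322.9 and 317.8 CPM in space_1g, and 235.8, 253.3 and 225.6 CPM on the ground. Both flight groups had nearly the same sum, 323 ± 8.62 (SD, n = 3) and 320 ± 3.56 CPM (n = 2), above 238.2 ± 14.03 CPM (n = 3) on the ground. The sum holds PTP4A1, so this too is a description.

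The makeup behind those sums differed. PTP4A1 gave 39.2% to 40.4% of the family's reads in space_microg, 50.04% and 43.5% in space_1g, and 33.6%, 34.6% and 42.8% on the ground. As a ratio within a library, which no scaling between libraries can move, PTP4A1 to PTP4A2 was -0.55, -0.62 and -0.61 (log2) in space_microg, 0.017 and -0.36 in space_1g, and -0.97, -0.90 and -0.37 on the ground. Each library that stands apart had the highest ratio of its group, and ground replicate 3 overlapped the flight libraries. PTP4A3 gave 2.01% of the reads in ground replicate 3 and 0.473% to 0.820% in the other 7.

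Levels of different genes are comparable only per length, here CPM per kilobase of merged exons (5281, 6719 and 2877 bases). On that scale PTP4A1 had 24.2 ± 0.26 in space_microg, 28.4 ± 3.12 in space_1g and 16.6 ± 1.63 on the ground. PTP4A2 had 28.7 ± 1.04, 25.1 ± 1.82 and 22.0 ± 3.07 in the same order, and PTP4A3 0.68 ± 0.18, 0.74 ± 0.24 and 0.91 ± 0.58. PTP4A1 was thus at 0.652 to 1.29 times PTP4A2, with space_1g replicate 1 the only library where it exceeded it, and at 11.6 to 54.2 times PTP4A3. On this scale the 2 abundant members did not differ beyond their spread in space_1g. The principal transcripts have the reverse order of length, 4711 bases for PTP4A1 and 3921 for PTP4A2. Which of the 2 is higher per length, in space_1g too, therefore depends on the length used, and merged exons may not be the expressed ones.

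**Figure D3:**
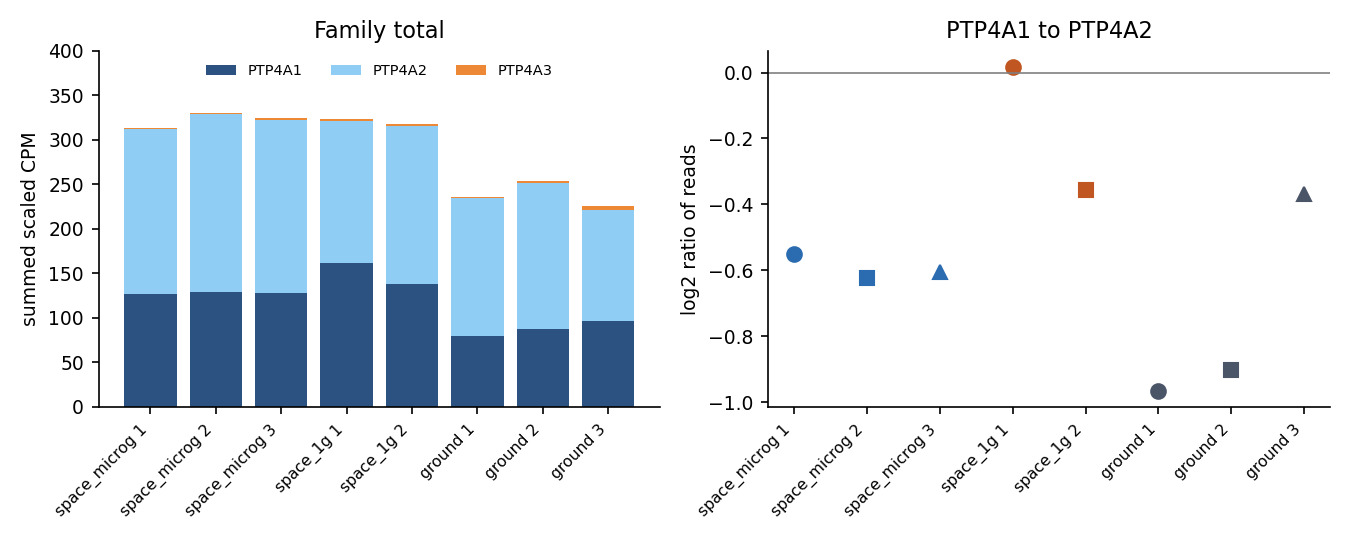
Left, summed scaled CPM of the 3 genes (y axis, from 0) in each library (x axis), stacked by gene. Right, log2 ratio of PTP4A1 to PTP4A2 reads (y axis) in each library, coloured by group with marker shape for the replicate number. The sum is 313 to 330 CPM in flight and 226 to 253 CPM on the ground, and the ratio is highest in space_1g replicate 1.

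Between the members, Pearson's r of log2(CPM + 1) over the 8 libraries was 0.48 for PTP4A1 and PTP4A2, -0.094 for PTP4A1 and PTP4A3 and -0.55 for PTP4A2 and PTP4A3, as a description. Of 11393 genes with a mean of at least 5 CPM, 1021 followed PTP4A1 more closely than PTP4A2 did. These libraries share their groups, depth and the state of the libraries that stand apart.

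The genes most like PTP4A1 by Pearson's r over the 8 libraries were CDK6, a kinase of the G1 phase (0.96), SHOC2, a scaffold of RAS to ERK signalling (0.96), the RNA-binding protein ZMAT3 (0.95), the transcription factor TRPS1 (0.95) and COPZ2, a coat protein of Golgi vesicles (0.94). SHOC2 had 92.2, 97.7 and 94.96 CPM in space_microg, 98.0 and 99.4 in space_1g and 75.6, 76.2 and 78.7 on the ground. CDK6 had 63.4, 59.6 and 62.8 CPM, then 70.5 and 68.4, then 51.8, 51.2 and 54.2, in the same order of groups and with no overlap. CDK6, like PTP4A1, was highest of its group in each library that stands apart, and SHOC2 was so on the ground only. ZMAT3 had 147 and 112 CPM in space_1g, 110, 118 and 131 in space_microg and 57.5, 78.9 and 88.4 on the ground. Genes named as most like or most opposed were picked over these same libraries, so a shared or reversed order is a description only.

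The genes most opposed to PTP4A1 were FDFT1, the squalene synthase (r = -0.95), SQLE, which oxidises squalene (-0.93), and CYP51A1, which demethylates lanosterol (-0.93). FDFT1 had 103.6, 98.0 and 99.6 CPM in space_microg, 84.8 and 88.8 in space_1g and 121.8, 112.2 and 107.4 on the ground, the exact reverse of the PTP4A1 order (Spearman's correlation -1). Next came the mitotic transcription factor FOXM1 (-0.93) and the centrosomal protein CEP41 (-0.93). PTP4A2 had NUDT3, an enzyme that clears inositol pyrophosphates, as its closest gene (0.98), with 153, 164 and 150 CPM in space_microg against 65.3 to 119 on the ground.

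**Figure D4:**
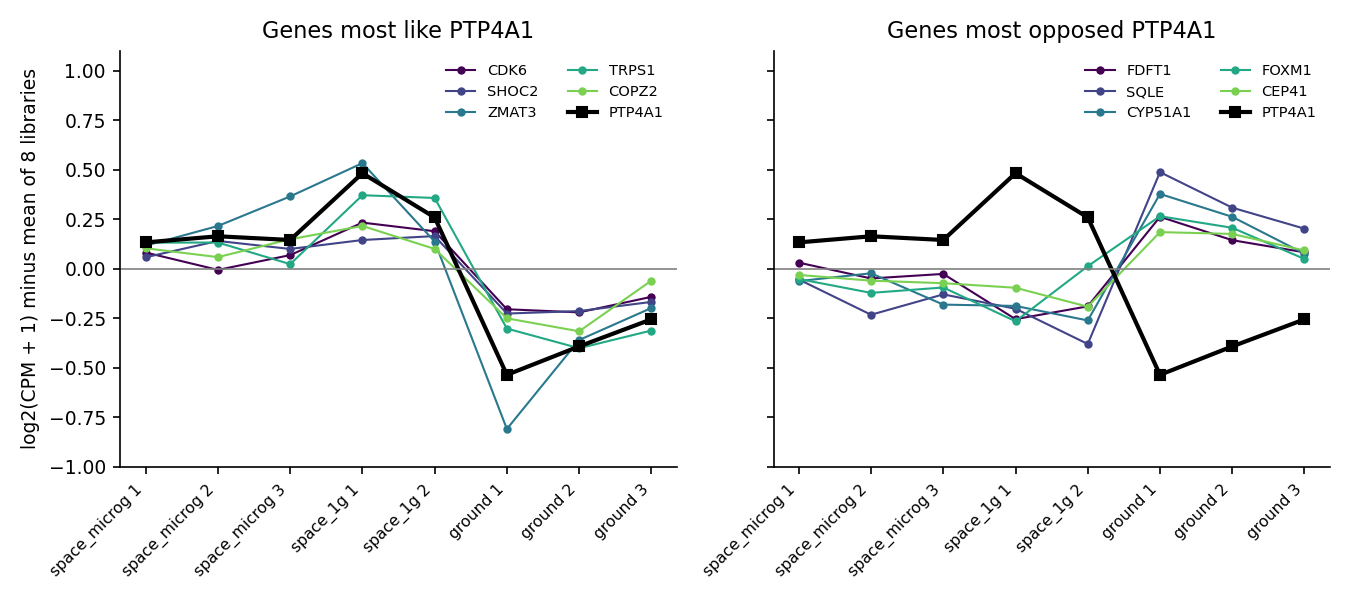
Log2(CPM + 1) minus its mean over the 8 libraries (y axis) by library (x axis), for the 5 genes with the highest (left) and lowest (right) Pearson's r with PTP4A1, which is drawn in black squares. These genes were selected for this pattern, so the plot shows the size of their swings. PTP4A1 spans more than CDK6, SHOC2 or FDFT1 and less than ZMAT3.

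CNNM proteins, the partners of PTP4A phosphatases, did not pass the test in any comparison, where 0% of all genes did. CNNM2 had 20.1, 20.4 and 18.8 CPM in space_microg, 20.5 and 24.4 in space_1g and 24.98, 28.7 and 18.5 on the ground. CNNM3 had 29.8, 27.1 and 32.5, then 31.1 and 29.6, then 32.3, 36.0 and 34.4 CPM. It differed by -0.17 ± 0.16 for space_1g against ground, where the groups did not overlap, as in 5.73% of all genes. CNNM4 was high in the libraries that stand apart, with 45.6 and 59.5 CPM in them and 23.3 to 27.9 CPM in the other 6.

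Of the 20 genes listed as CNNM partners or magnesium handlers, 19 were measured and limma called 0, where it called 0% of all genes. For space_1g against ground 11 of 19 were higher, where 51.2% of all genes were, with a median of 0.040 against 0.0061 for all genes. For space_microg against ground 10 were higher, where 47.0% of all genes were, with a median of 0.039 against -0.022. The members with the smallest p in space_1g against ground were TUSC3, a subunit of an oligosaccharyltransferase with a role in magnesium uptake (0.62 ± 0.33), the transporter NIPAL1 (1.04 ± 0.66), SLC41A3 (-0.21 ± 0.16) and MMGT1 (0.21 ± 0.17). MMGT1 had 59.1 ± 5.83 CPM in space_microg (SD, n = 3) and 45.9 ± 2.43 on the ground (n = 3), a difference of 0.35 ± 0.15 (limma, adjusted p = 0.866).

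The list for lipid attachment to the CAAX tail and its processing, which includes makers of the lipid donors, had all 9 genes measured. In any comparison 0 passed, where 0% of all genes did. For space_1g against ground 4 of the 9 were higher, where 51.2% of all genes were (median -0.072 against 0.0061 for all genes). For space_microg against ground 6 were higher, where 47.0% of all genes were (median 0.065 against -0.022). FDPS, which makes farnesyl diphosphate, the donor of the lipid, had 129.8 and 143.2 CPM in space_1g and 169.6, 165.5 and 168.8 on the ground, a log2 difference of -0.30 ± 0.14 without overlap, as in 5.73% of all genes. In space_microg it had 160.1, 158.5 and 185.3 CPM, around the ground level (-0.0038 ± 0.13). GGPS1, which makes the longer geranylgeranyl donor, had 37.6 and 43.6 CPM in space_1g, 36.0, 44.4 and 42.1 in space_microg and 31.5, 30.04 and 33.5 on the ground. All 5 flight libraries were above ground, as in 1.57% of all genes. FNTB, the catalytic subunit of the farnesyltransferase, had 16.4 to 18.6 CPM in space_microg, 16.9 and 19.2 in space_1g and 19.2 to 24.0 on the ground. The CAAX protease ZMPSTE24 differed by -0.18 ± 0.16 in space_1g and 0.078 ± 0.14 in space_microg.

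Other phosphatases showed no change that passed the test, which 0% of all genes passed. Among the closest relatives, the VH1-like dual-specificity phosphatases, 31 of 34 were measured. For space_1g against ground 19 were higher, where 51.2% of all genes were (median 0.065 against 0.0061 for all genes). For space_microg against ground 15 were higher, where 47.0% of all genes were (median -0.047 against -0.022). CDC14B, a nucleolar phosphatase of the cell cycle, was higher by 0.30 ± 0.18 in space_1g and CDC14A lower (-0.32 ± 0.20), with DUSP28 at 0.30 ± 0.26 and CDKN3, which acts on cyclin-dependent kinases, at -0.38 ± 0.41. Of 35 classical tyrosine phosphatases 24 were measured. Beside the same shares of all genes, 13 were higher in space_1g (median 0.058) and 6 in space_microg (median -0.11). PTPRK had 155 ± 3.91 CPM in space_1g (n = 2), 154 ± 8.25 in space_microg (n = 3) and 179 ± 4.78 on the ground (n = 3). PTPRB, the endothelial receptor phosphatase that acts on TIE2, had 152 ± 10.1 CPM in space_1g, 164 ± 16.7 in space_microg and 245 ± 124 on the ground, differences well inside the ground spread. PTPRS differed by 0.37 ± 0.25 and PTPRG by -0.47 ± 0.32 in space_1g.

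The 11 factors named elsewhere as inducers of PTP4A1 or PTP4A3 were all measured, and 0 passed, where 0% of all genes did. EGR1, whose motif was found in the PTP4A1 window, had 22.3 and 30.9 CPM in space_1g and 20.3, 15.7 and 15.7 on the ground. Its space_1g libraries were thus above all ground libraries, as in 4.94% of all genes. In space_microg it had 16.1, 27.3 and 30.4 CPM, which overlapped the ground libraries. Its difference was 0.59 ± 0.30 in space_1g and 0.45 ± 0.26 in space_microg. STAT3 differed by 0.12 ± 0.31 and -0.19 ± 0.28 in the same order. Of the VEGF arm, reported for PTP4A3, VEGFA had 71.0 and 89.3 CPM in the libraries that stand apart and 17.3 to 32.02 CPM in the other 6, and its receptor KDR had 99.2 to 158 CPM in the 5 flight libraries and 164 to 194 CPM on the ground, one of the 2.23% of genes with all flight libraries below ground. MEF2C, a factor downstream of VEGF, had -0.17 ± 0.40 and 0.29 ± 0.35. A further 5, MEF2A, SNAI1, TGFB1, NFKB1 and RELA, lay between -0.21 and 0.18 in space_1g and between -0.57 and -0.13 in space_microg.

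Of 30 genes listed as downstream signals or substrates, all were measured and 0 passed, where 0% of all genes did. For space_1g against ground 10 were higher, where 51.2% of all genes were (median -0.061 against 0.0061 for all genes). For space_microg against ground 16 were higher, where 47.0% of all genes were (median 0.0090 against -0.022). RHOA, the small GTPase of actin contraction, had 738 ± 42.1 CPM in space_1g (n = 2), 779 ± 15.4 in space_microg (n = 3) and 632 ± 25.8 on the ground (n = 3), higher by 0.22 ± 0.16 and 0.30 ± 0.14. The nucleolar protein NCL differed by -0.33 ± 0.17 in space_1g and 0.073 ± 0.15 in space_microg. SRC differed by 0.28 ± 0.24 and -0.15 ± 0.21, and RHOC by 0.47 ± 0.42 and -0.052 ± 0.37.

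Immediate early genes are the class in which PTP4A1 was first found. Of 37 listed, 34 were measured and 0 passed, where 0% of all genes did. For space_1g against ground 27 were higher, where 51.2% of all genes were (median 0.27 against 0.0061 for all genes). For space_microg against ground 4 were higher, where 47.0% of all genes were (median -0.29 against -0.022). FOS had 13.8 ± 5.01 CPM in space_1g (n = 2), 7.16 ± 0.60 in space_microg (n = 3) and 9.90 ± 0.98 on the ground (n = 3). SGK1 differed by -0.29 ± 0.20 and -0.25 ± 0.18, and NR4A2 by -0.53 ± 0.37 and -0.96 ± 0.34. The list's score was highest in the libraries that stand apart, 1.28 and 1.07 against -1.04 to 0.014 elsewhere. These libraries lie in space_1g and ground, and their part in the list's differences was not tested.

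**Figure D5:**
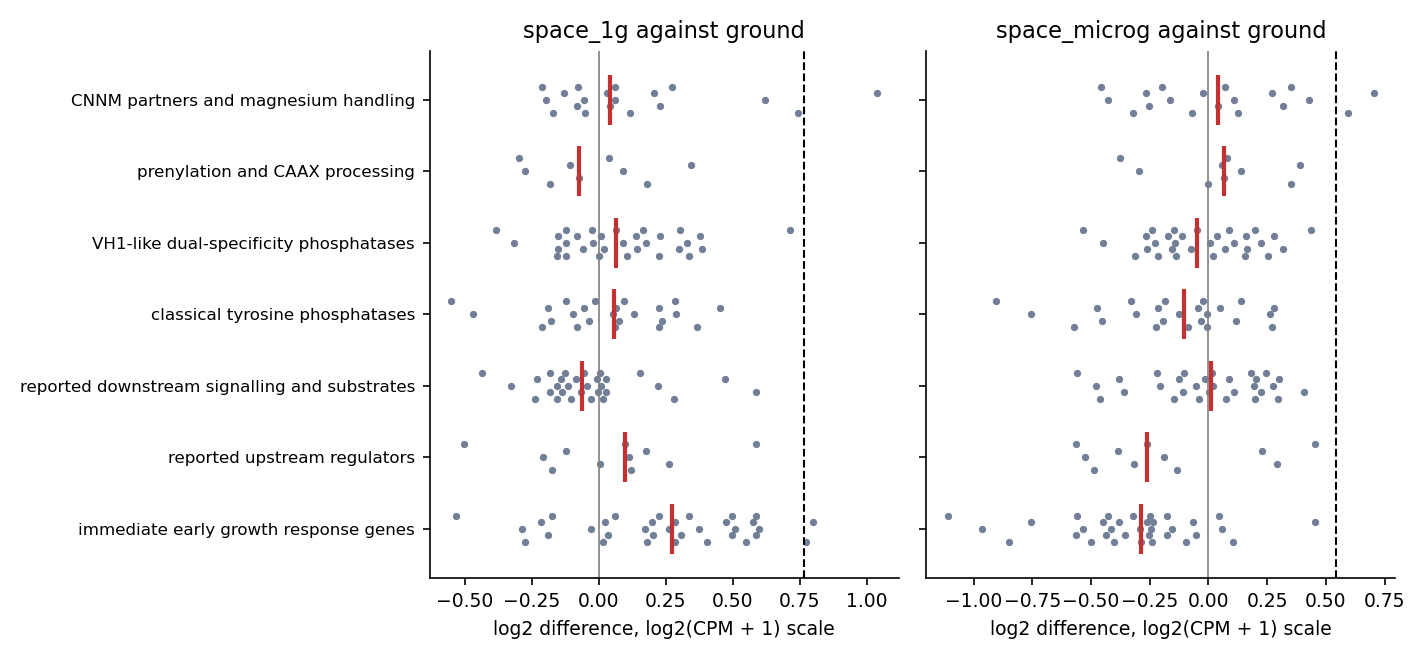
Log2 difference on the log2(CPM + 1) scale (x axis) of each measured gene (grey points, spread vertically for legibility) in 7 lists (y axis), for space_1g against ground (left) and space_microg against ground (right). Red bars are list medians and the dashed line is PTP4A1, at 0.76 and 0.54. The medians of immediate early genes lie at 0.27 and -0.29, on opposite sides of 0.

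None of the measured genes nearest to each member passed the test, which 0% of all genes passed. PHF3, 52443 bases from PTP4A1 on chromosome 6, had 240 ± 78.2 CPM in space_1g (n = 2), 284 ± 35.3 in space_microg (n = 3) and 240 ± 33.5 on the ground (n = 3), differences of -0.033 ± 0.23 and 0.24 ± 0.21 from ground (limma, adjusted p = 1.00 and 0.866). The other three measured neighbours of PTP4A1, LMBRD1, LINC00680 and PRIM2, are each at least 5560245 bases away. KHDRBS1, 68973 bases from PTP4A2 on chromosome 1, differed by 0.055 ± 0.34 and 0.28 ± 0.31, and SPOCD1, on the other side, by 0.48 ± 0.52 and -0.12 ± 0.46. SLC45A4, 83688 bases from PTP4A3, differed by -0.19 ± 0.30 and -0.41 ± 0.27.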

How the data were processed

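Libraries of total RNA (8 in all) were strand-specific and depleted of ribosomal RNA, per the labels' protocols. The deposited matrix holds a scaled signal for each gene, which its name calls CPM, in columns that sum to 966156 to 1061177. Per the submitters' processing notes, which assign no roles, the tools were STAR 2.5.3, featureCounts, edgeR, FastQC and CASAVA 1.8.2 on hg38 (GRCh38). The strand setting of the counting is not stated in them. Every deposited value was a whole multiple of what 1 read is worth (0.0285 to 0.0398 CPM) within 1e-06 read, so reads were recovered for count tests, for 100% of values. A count of 0 allows 3 reads, or 0.0855 to 0.120 CPM. Intervals cover counting error only.

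Values were tested as log2(CPM + 1) with limma 3.58.1 in R 4.3.3 (lmFit, eBayes with trend), two-sided, all 8 libraries in one fit, no covariates, Benjamini-Hochberg adjustment at 0.05. Genes with at least 1 CPM in at least 2 libraries were kept (16103, leaving out 50). The test was planned for CPM and kept for these scaled values. Members and gene lists were chosen with earlier results of these data known. Genes named are the members, the 5 most like each by Pearson's r, the 5 most opposed to PTP4A1, all CNNM genes and listed regulators, up to 4 per list with the smallest p in space_1g against ground, and neighbours on the chromosome. CNNM1 is not analysed here, and 1 listed regulator and 1 gene list are not reported here. Alternatives were other pseudocounts, filters, scalings, weights, edgeR 4.0.16, DESeq2 1.42.0, a replicate block and libraries left out. The fit was tested on simulated data with planted changes larger than those of the members. It therefore does not show how often changes of their size are found.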

Additional observations from a re-analysis of the deposited data

How the results depend on the processing

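Over 21 other settings, PTP4A1 and PTP4A2 kept their direction in all 3 comparisons, and no setting took PTP4A2 past the threshold. PTP4A1 ranged from 0.65 to 0.90 for space_1g against ground, 0.47 to 0.67 for space_microg against ground and -0.33 to -0.11 for space_microg against space_1g. PTP4A3, left out by a filter of 5 CPM, changed sign. For space_1g against ground it was 0.24 with weights per library, 0.11 with the replicate block, 0.45 without both libraries that stand apart, and -0.36 to 0.22 with 1 library left out. For space_microg against ground it was 0.082 with weights, 0.14 without both libraries and -0.40 to 0.14 with 1 left out, and for space_microg against space_1g 0.049 with quantile scaling and -0.31 to 0.15 with 1 left out. The cause was not tested. Genes called stayed at 0 except for space_microg against ground, with 615 under weights per library and 3 in DESeq2. Genes at an unadjusted p under 0.05 for space_1g against ground were 82 without ground replicate 1 and 1315 without ground replicate 3. For space_microg against ground the lowest number with 1 library left out was 252 (without space_microg replicate 3) and the highest 1044 (ground replicate 3 omitted), and for space_microg against space_1g 30 without space_1g replicate 1 and 2409 without space_1g replicate 2. With the replicate block 0 genes were called in each comparison. Same-numbered libraries correlated at -0.678 to 0.679 in their deviations from group means over 7 pairs. Deviations of the space_1g libraries mirror each other by construction, and the libraries that stand apart carry different numbers. These correlations therefore cannot decide whether the numbers pair libraries. Where 1 space_1g library was left, it was assumed to vary like the other groups. Depth limits PTP4A3, at 42 to 148 reads.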

Other observations

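PTP4A1P3, a processed pseudogene of PTP4A1 of 420 bases inside CDK14 on chromosome 7, has its own values in the table. It had 0.798, 1.23 and 1.11 CPM in space_microg, 0.683 and 0.982 in space_1g and 0.983, 0.797 and 0.950 on the ground, from 20 to 42 reads. Its groups overlapped. CDK14 lies on the same strand, so its reads and those of the pseudogene cannot be told apart here.

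The genes most like PTP4A3 over the 8 libraries, ZNF525 (Pearson's r = 0.95), NSMCE1 (0.94), TRAFD1 (0.94), C15orf57 (0.93) and CBY1 (0.93), give a description only. NSMCE1, a subunit of the SMC5/6 complex of DNA repair, had 42.9 CPM in ground replicate 3 and 27.2 to 35.1 CPM in the other 7. PTP4A2 was most like NUDT3 (0.98), PPP2R3C, a regulatory subunit of protein phosphatase 2A (0.98), the ceramidase ACER3 (0.97), ZNF260 (0.97) and the nuclear receptor corepressor NRIP1 (0.96). ACER3 had 79.8 to 84.1 CPM in space_microg, 56.8 and 69.9 in space_1g and 43.5 to 65.9 on the ground. It was picked for its likeness to PTP4A2 over these same libraries, so a shared order is a description only.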
